A study of Schizosaccharomyces pombe with 24 samples.

Results

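The RNA of 2 fission yeast strains that each carry 1 substitution in histone H2B, htb1-D67N and htb1-E112K, was compared directly, without wild-type cells between them. The members are the 6 RNA-seq libraries labelled with these genotypes, 3 htb1-D67N and 3 htb1-E112K, of 24 libraries and 8 genotypes in the series; their read counts were joined by gene identifier. Both strains are h+ ade6-M210 leu1-32 ura4-D18, with the mutated htb1 followed by the kanMX6 drug marker, so they share mating type, auxotrophies and marker and differ by design in the H2B residue. The 3 WT libraries, whose levels are printed beside some genes as a background with no test, come from an h+ ade6-M216 leu1-32 ura4-D18 strain that lacks the marker, and cells were grown at 30 °C with no further treatment named for the RNA samples. Each genotype is 1 strain as listed, so the strain and its mutation cannot be told apart. The labels and the study describe the libraries of a group as biological repeats, with no word on which were grown together, and p-values measure the spread between these libraries.

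H2B is one of the core histones around which DNA is wrapped, and Schizosaccharomyces pombe makes it from a single gene, htb1 (SPCC622.09), so every nucleosome of these haploid cells carries the substituted protein. E112 is one of the acidic residues that H2A and H2B expose together on the face of the nucleosome, the acidic patch, on which many chromatin factors dock. D67 lies in the histone fold. Near its C-terminal end H2B is monoubiquitinated by the HULC ligase, and the mark is removed by the Ubp8 module of the SAGA coactivator. In fission yeast the genes next to the telomeres are held at low levels by silent chromatin, which makes them a common readout of mutations in histones.

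The codons that the 2 strains replace are shown because they are what separates the groups. They were read from the RefSeq genome of S. pombe, build ASM294v3, on the + strand of chromosome III, inside the single coding exon of htb1, and residues are counted without the first methionine. The stretch with the D67 codon lies at III:1412673-1412699 and that with the E112 codon at III:1412808-1412834. Each is the reference sequence, 5′ to 3′, with the codon that the mutation replaces in capitals.
htb1 D67 codon (Asp in WT, Asn in htb1-D67N): tctttcgtcaacGATatttttgagcgt
htb1 E112 codon (Glu in WT, Lys in htb1-E112K): cacgccgttaccGAAggtaccaaatcc

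The libraries held 19353141 to 21457605 counts for htb1-D67N and 25759931 to 27138609 for htb1-E112K, so the strains did not overlap in depth. The first principal component, with 47.6% of the variance, separated the strains. The second, with 29.2%, set htb1-D67N replicate 3 and htb1-E112K replicate 1 apart from the other 4 libraries. The same pair had the lowest sums over the list of cytosolic ribosomal proteins within their strains. These were 189300 CPM (read counts scaled to library size) against 291500 and 317100 in htb1-D67N, and 230900 against 288800 and 369100 in htb1-E112K. The ura4 gene, deleted in all 3 genotypes, was at 0 CPM in every htb1-D67N library, at 0 to 0.0433 CPM in the htb1-E112K libraries and at 0 in WT replicates 1 and 2, but at 39.6 CPM in WT replicate 3, which also had 4.71 CPM of mat1-Mc, a gene of the opposite mating type. WT levels are therefore given library by library, replicate 3 last. The other strain markers (ade6, arg3, his3, leu1 and lys1) had log2 fold changes of 0.15 to 0.58 between the mutants, none called.

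The mutated gene itself was examined first. The htb1 transcript was at 11198, 11293 and 7718 CPM in htb1-D67N cells and at 5898, 3809 and 5438 CPM in htb1-E112K cells, against 831, 908 and 968 CPM in WT. The 2 mutants did not overlap, and both lay far above WT, which differs from them also by the kanMX6 cassette behind the gene; mutation and cassette cannot be told apart there. The log2 fold change of htb1-D67N over htb1-E112K was 0.98 ± 0.29 (SE), with an adjusted p of 0.0623 in edgeR's quasi-likelihood test. Both values were just short of the call. Without htb1-D67N replicate 3 the log2 fold change was 1.13, with an adjusted p of 0.0175, which passes. In the other 5 fits that left out 1 library it was 0.82 to 1.10, with adjusted p of 0.0785 to 0.246, and did not pass. In the other settings that kept every library it was 0.96 to 0.99, below the fold limit. There DESeq2 gave an adjusted p of 0.000452. In edgeR it was 0.0195 with all 24 libraries, 0.0204 with WT added, 0.0211 with gene-length correction and 0.0383 under total-count scaling. These passed, and only the fold fell short. The adjusted p was 0.0595 to 0.186 with no filter, a stricter filter, RLE scaling, thinning or the replicate block, and did not pass. The count columns do not separate alleles, and so give no check of the substitutions themselves.

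The other core histone genes, which in dividing cells are transcribed together in S phase, differed less. Of the 11 core histone and H2A.Z genes, htb1 among them, none was called by edgeR or by DESeq2. An unadjusted p under 0.05 was found for 4, against 1230 of all 4935 tested genes. Their median log2 fold change was 0.23, with 9 of 11 above 0. The H2A gene hta2 was at 853, 866 and 650 CPM in htb1-D67N and at 485, 539 and 485 CPM in htb1-E112K (log2 fold change 0.63 ± 0.18, adjusted p = 0.0507). The other H2A gene, hta1, which is the divergent neighbour of htb1, was at 477, 462 and 330 CPM in htb1-D67N and at 262, 324 and 283 CPM in htb1-E112K (0.53 ± 0.18, adjusted p = 0.0949). In both H2A genes the 2 strains did not overlap. The H3 genes hht1, hht2 and hht3, the H4 genes hhf1, hhf2 and hhf3, the H2A.Z gene pht1 and cnp1, which encodes the centromeric H3, had log2 fold changes between -0.01 and 0.50, and none of these passed.

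Across the genome, 4935 genes had enough counts to be tested. The calling rule asked for 2-fold difference or more together with an adjusted p below 0.05. By this rule 204 genes, 4.13% of those tested, separated the 2 mutants: 85 (1.72%) were higher in htb1-D67N and 119 (2.41%) were lower. Without the fold limit, 508 of the 4935 had an adjusted p under 0.05, and 1230 had an unadjusted p under 0.05. Counts of such genes in the lists are to be set beside these. The libraries of the 2 strains did not overlap for any of the 204, against 30.9% of all tested genes without overlap. The genes lower in htb1-D67N were mostly of low abundance, with 60 of 119 under 5 CPM in both strains, against 9 of the 85 higher genes and 32.0% of all tested genes. Scaling by total counts instead of by TMM, edgeR's trimmed mean of M-values, left 52 higher and 45 lower genes, so that 46.4% of the calls were lower instead of 58.3%. With htb1-D67N replicate 3 and htb1-E112K replicate 1 both left out, a setting added after seeing the data, 120 genes were higher and 203 lower.

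**Figure D1:**
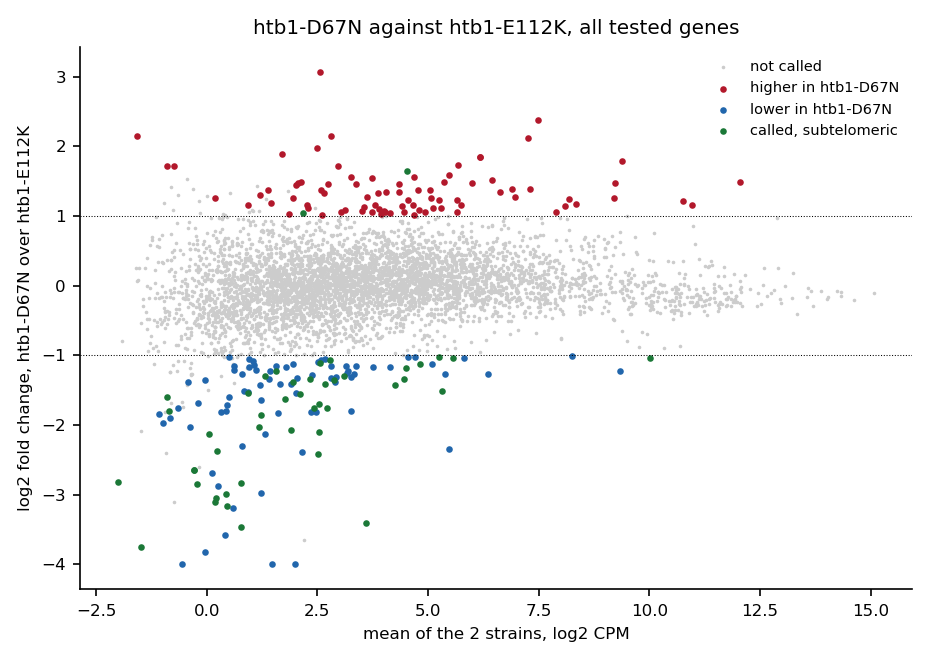
Each point is 1 of 4935 tested genes, with the mean level of the 2 strains in log2 CPM on the x axis and the log2 fold change of htb1-D67N over htb1-E112K on the y axis. The 85 genes above and the 119 below the dotted lines of 2-fold change are coloured where called, and the green subtelomeric genes lie almost all on the lower side; 3 genes with 0 counts in htb1-D67N are drawn at -4.

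The largest block of differences lay at the chromosome ends. Among the tested genes of the 124 within 100 kb of an assembled end of chromosome I or II, 44 (43.1%) were lower in htb1-D67N than in htb1-E112K, against 2.41% of all tested genes, and 2 were higher. Their median log2 fold change was -0.835, beside 0.00 for all tested genes, with 85 of the tested members below 0 and 17 above. These genes made up 37.0% of the 119 lower genes, 2.35% of the 85 higher genes and 2.07% of all tested genes. Summed over the list, their level was 2464, 2539 and 2188 CPM in htb1-D67N, against 3294, 3755 and 3883 CPM in htb1-E112K. The WT libraries were at 1650, 1506 and 1379 CPM, below both mutants. One gene, the acid phosphatase gene pho1, carried much of these sums, which without it were 1745, 1799 and 1614 CPM in htb1-D67N, 2142, 2300 and 2366 CPM in htb1-E112K and 1354, 1235 and 1248 CPM in WT, still without overlap. Total-count scaling gave 23 lower members, and a minimum of 10 counts in every library, which admitted 80 of the members, gave 29.

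The share of genes called lower fell with distance from the end. Within 25 kb it was 57.9% (11 of 19 tested), from 25 to 50 kb 57.1% (16 of 28), from 50 to 75 kb 35.7% (10 of 28) and from 75 to 100 kb 25.9% (7 of 27). From 100 to 150 kb it was 9.09% (6 of 66), and from 150 to 200 kb 1.18% (1 of 85). Further in, 38 of 3743 genes (1.02%) were lower. The median log2 fold change ran in the same order, at -1.82, -1.39, -0.67, -0.39 and -0.16 over the first 5 intervals, and at 0.04 and 0.02 beyond them. All 4 ends took part: 15 of 31 tested genes were lower at the left end of chromosome I, 12 of 28 at its right end, 11 of 25 at the left end of chromosome II and 6 of 18 at its right end, with medians of -1.12, -0.90, -0.80 and -0.73. At the ends of chromosome III, where the ribosomal DNA arrays lie, 2 of 4 tested genes within 25 kb were lower and 1 was higher. Further in on chromosome III, 2 of 15 were lower from 25 to 50 kb (13.3%), 2 of 19 from 50 to 75 kb (10.5%) and 2 of 23 from 75 to 100 kb (8.70%). The medians of these 4 intervals were -0.90, -0.34, 0.06 and -0.22, so beyond 25 kb the shares were smaller than on chromosomes I and II. Distances are from the ends of the ASM294v3 assembly, which stops short of the telomere repeats and may differ from the build used for counting.

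**Figure D2:**
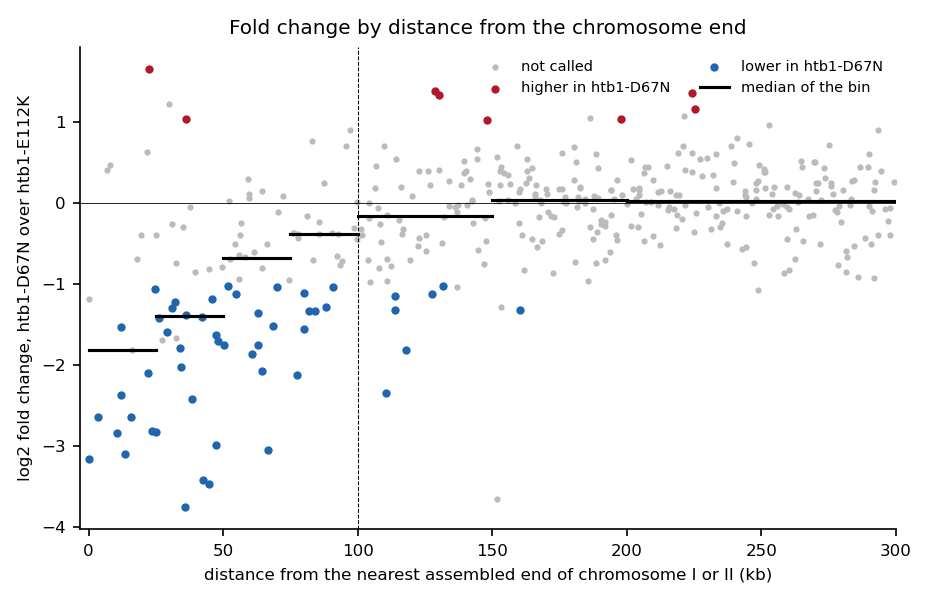
The x axis is the distance of each tested gene from the nearest assembled end of chromosome I or II, up to 300 kb, and the y axis its log2 fold change of htb1-D67N over htb1-E112K; black bars are the medians of the intervals (the last takes in all genes past 200 kb), and the dashed line marks 100 kb. All called genes within 100 kb but 2 lie below 0, the median is -1.82 within 25 kb, and genes called lower thin out past 100 kb.

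Single subtelomeric genes were several-fold apart between the mutants. The gene SPAC186.03, annotated as an L-asparaginase, was at 2.43, 2.13 and 1.74 CPM in htb1-D67N and at 23.6, 23.5 and 18.8 CPM in htb1-E112K, with WT at 0.808, 0.223 and 0.183 CPM (log2 fold change -3.41 ± 0.19, adjusted p = 2.56e-05). The predicted hexose transporter gene ght7 was at 2.18, 1.28 and 1.997 CPM in htb1-D67N, against 9.76, 10.04 and 9.10 CPM in htb1-E112K and 0.323, 0.445 and 0.183 CPM in WT (-2.41 ± 0.22, adjusted p = 0.000308). In both genes the htb1-D67N libraries lay between WT and htb1-E112K without overlap. The cell surface glycoprotein gene SPBC1348.08c had 1.93, 2.47 and 2.25 CPM in htb1-D67N and 8.18, 9.65 and 10.4 CPM in htb1-E112K (-2.10 ± 0.20, adjusted p = 0.000308). SPAC869.03c, a predicted urea transporter gene, had 1.09, 2.28 and 1.02 CPM in htb1-D67N and 6.57, 5.37 and 6.13 CPM in htb1-E112K (-2.07 ± 0.30, adjusted p = 0.00254). SPBPB2B2.08, a conserved fungal gene, had 2.33, 2.84 and 2.25 CPM in htb1-D67N and 8.36, 7.96 and 8.35 CPM in htb1-E112K (-1.75 ± 0.19, adjusted p = 0.0005). These 5 calls held with each of the 6 libraries left out in turn.

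Further genes of the same regions were picked after their values were seen. SPBPB2B2.06c, a predicted phosphatase gene, was at 18.7, 22.2 and 21.2 CPM in htb1-D67N and at 70.2, 53.2 and 51.9 CPM in htb1-E112K, against 2.21, 1.34 and 0.870 CPM in WT (log2 fold change -1.51 ± 0.16, adjusted p = 0.0005). The gene aes1, annotated as an enhancer of RNA-mediated gene silencing, was at 26.4, 31.1 and 35.3 CPM in htb1-D67N and at 71.0, 57.7 and 60.2 CPM in htb1-E112K (-1.04 ± 0.16, adjusted p = 0.00274). For both, htb1-D67N was above WT (8.14, 4.79 and 3.20 CPM for aes1) and htb1-E112K higher still, with no overlap. The sodium/proton antiporter gene sod2 was at 28.8, 26.1 and 20.8 CPM in htb1-D67N, against 40.2, 54.5 and 57.6 CPM in htb1-E112K and 23.2, 26.0 and 22.8 CPM in WT (-1.03 ± 0.18, adjusted p = 0.00563). Here htb1-D67N overlapped WT. The aes1 call was lost without htb1-D67N replicate 1 or without htb1-E112K replicate 1, and the sod2 call without htb1-D67N replicate 3 or without htb1-E112K replicate 2 or 3.

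**Figure D3:**
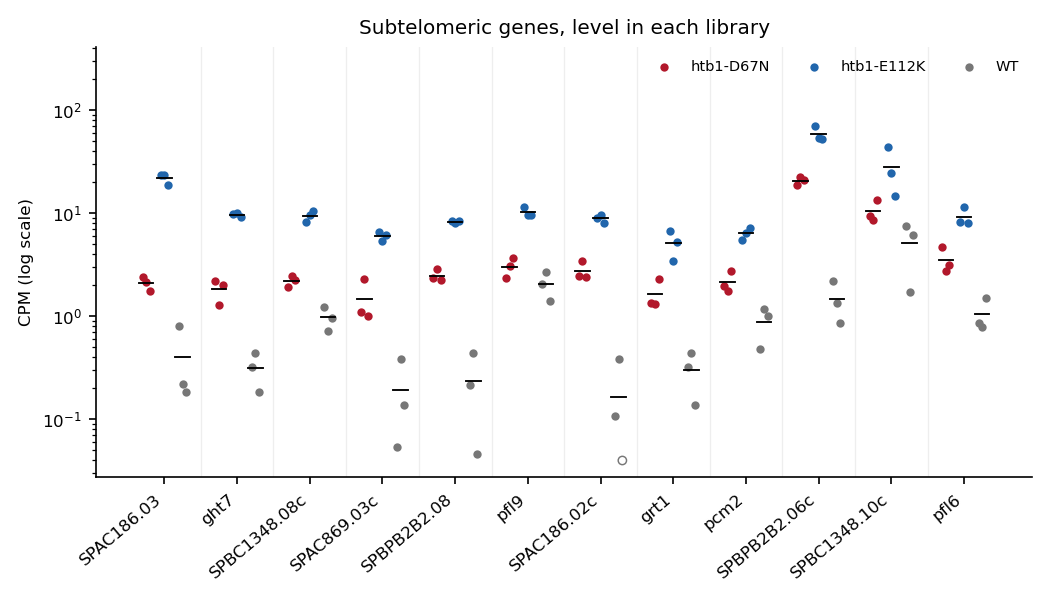
Level in CPM, on a log axis, of the 12 subtelomeric genes with the largest fall among those with at least 5 CPM in either mutant; each point is 1 library (htb1-D67N left, htb1-E112K middle, WT right), bars are means, and an open circle is a library at 0. For SPAC186.03 the htb1-D67N libraries sit between 1.74 and 2.43 CPM, under all htb1-E112K libraries (18.8 to 23.6 CPM) and above all WT libraries.

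Set beside WT, both mutants had raised levels over much of the subtelomeric list, and htb1-E112K over more of it. In htb1-D67N, 61 of the tested members (59.8%) had all 3 libraries above all 3 WT libraries, against 27.1% of all tested genes. In htb1-E112K it was 81 (79.4%), against 24.8% of all tested genes. With WT replicate 3 left out, the counts were 64 for htb1-D67N (32.8% of all tested genes) and 85 for htb1-E112K (31.2%). Among the 44 genes lower in htb1-D67N than in htb1-E112K, 23 lay above WT in both mutants (16.6% of all tested genes did), 5 lay below WT in htb1-D67N (22.1%), and none lay below WT in htb1-E112K (19.1%). These 44 were chosen for being lower in htb1-D67N than in htb1-E112K, so nothing is read from these counts. This is a description of levels, and no test against WT was made.

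Not every gene of these regions followed. SPAC750.01, an aldo/keto reductase family gene within 25 kb of an end, was higher in htb1-D67N, at 29.9, 28.1 and 47.0 CPM, against 10.6, 10.3 and 12.3 CPM in htb1-E112K and 11.2, 0.278 and 5.40 CPM in WT (log2 fold change 1.65 ± 0.21, adjusted p = 0.00139); its call was lost when WT or all 24 libraries entered the fit. SPAC186.06, annotated for the unfolded protein response, was at 7.64, 6.16 and 4.61 CPM in htb1-D67N and at 1.88, 3.55 and 3.42 CPM in htb1-E112K (1.04 ± 0.28, adjusted p = 0.0445), a call that was lost in 5 of the 6 fits that left out 1 library, all but the one without htb1-D67N replicate 3. The galactose genes gal1, gal7 and gal10, which form a cluster that lies among these regions on chromosome II, had log2 fold changes of -0.79, -0.39 and 0.03. None of the 4 genes on the galactose list was called by edgeR or DESeq2, and 1 had an unadjusted p under 0.05. That was gal1, lower in htb1-D67N without overlap (adjusted p = 0.0116 in edgeR) but short of 2-fold. Over 93.7% of its length gal10 has a gene on the other strand. Subtelomeric families share sequence, and how reads that fit several copies were counted is not given in the sources used here; SPAC212.12 and SPAC750.07c had identical counts in all 6 libraries and both stand among the 44.

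The proteins that build or limit silent chromatin were read from a list of 23 heterochromatin and RNA interference genes, 21 of them tested. Of these, 1 was called higher (4.76%, against 1.72% of all tested genes) and none lower. The called gene was epe1, which encodes a JmjC-domain protein that counteracts heterochromatin in fission yeast. It was at 14.3, 11.3 and 10.4 CPM in htb1-D67N and at 3.37, 4.02 and 3.46 CPM in htb1-E112K, against 5.07, 3.01 and 5.90 CPM in WT (log2 fold change 1.71 ± 0.19, adjusted p = 0.000584). The htb1-E112K libraries overlapped WT, and the htb1-D67N libraries stood above both. The H3K9 methyltransferase gene clr4 was at 3.92, 4.88 and 5.74 CPM in htb1-D67N and at 6.24, 6.71 and 7.08 CPM in htb1-E112K (-0.47 ± 0.20, adjusted p = 0.169). The HP1 gene swi6 had a log2 fold change of -0.15 ± 0.18 (adjusted p = 0.679). The list's median was -0.14, and without htb1-D67N replicate 3 and htb1-E112K replicate 1 together 4 members were called lower. Of 8 Tf2 retrotransposon genes tested, none was called by edgeR or DESeq2, 1 had an unadjusted p under 0.05, and their median was -0.49; 4 copies had identical counts and are not separate measurements.

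Among the 12 genes with the largest rise in htb1-D67N were both called members of the glutathione list. The gene zwf2, a predicted glucose-6-phosphate dehydrogenase, the NADPH-forming entry to the pentose phosphate pathway, was at 432, 322 and 156 CPM in htb1-D67N and at 55.7, 64.8 and 51.1 CPM in htb1-E112K, with WT at 64.2, 46.6 and 28.1 CPM (log2 fold change 2.38 ± 0.31, adjusted p = 0.00153). The gene gcs1, which encodes glutamate-cysteine ligase, the first enzyme of glutathione synthesis, was at 116, 111 and 113 CPM in htb1-D67N and at 33.3, 31.7 and 28.5 CPM in htb1-E112K, with WT at 23.4, 21.7 and 31.6 CPM (1.84 ± 0.13, adjusted p = 6.32e-05). In both genes htb1-D67N stood alone, while htb1-E112K overlapped WT. The list of 24 glutathione metabolism genes held these 2 calls (8.33%, against 1.72% higher among all tested genes) and none lower. Its median log2 fold change was 0.41, with 17 members above 0 and 7 below. Of all 4935 tested genes 508 had an adjusted p under 0.05, and of this list 7 members did. Among these, the glutathione S-transferase gene gst2 was at 304, 326 and 375 CPM in htb1-D67N and at 167, 151 and 191 CPM in htb1-E112K, short of 2-fold (0.97 ± 0.16, adjusted p = 0.00453). The gene gst1 of the same family went the other way at low levels and was not called. It was at 0.496, 0.379 and 0.545 CPM in htb1-D67N and at 0.955, 1.25 and 1.03 CPM in htb1-E112K (-1.18 ± 0.34, adjusted p = 0.052).

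Further members of the leading 12 were oxidoreductases by their annotation. The gene zta1, an NADPH quinone oxidoreductase, was at 271, 257 and 216 CPM in htb1-D67N and at 53.8, 60.0 and 55.1 CPM in htb1-E112K, with WT in between at 84.7, 87.5 and 74.5 CPM (log2 fold change 2.12 ± 0.14, adjusted p = 6.29e-05). SPAC26F1.07, a predicted NADP+-dependent glucose dehydrogenase gene, was at 1273, 1150 and 670 CPM in htb1-D67N and at 204, 364 and 314 CPM in htb1-E112K (1.79 ± 0.29, adjusted p = 0.00374). SPBC725.03, a predicted pyridoxamine 5′-phosphate oxidase gene, was at 133, 124 and 81.5 CPM in htb1-D67N and at 26.9, 31.2 and 35.1 CPM in htb1-E112K (1.84 ± 0.19, adjusted p = 0.0005). The libraries of the strains were apart by a wide margin in each of these genes, and htb1-D67N replicate 3 was the lowest of its strain. Genes with dehydrogenase or reductase in their description, a group drawn up after the values were seen, numbered 15 of the 85 higher genes (17.6%) and 9 of the 119 lower ones (7.56%). Of the 179 such genes tested, 8.38% were higher and 5.03% lower, against 1.72% and 2.41% of all tested genes; nothing is read from a group drawn up in this way.

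A further 3 genes, picked after their values were seen and part of no list, were met17, cys2 and plr1. The homocysteine synthase gene met17 was at 151, 131 and 104 CPM in htb1-D67N and at 37.2, 49.1 and 47.1 CPM in htb1-E112K (log2 fold change 1.51 ± 0.17, adjusted p = 0.00075). The predicted homoserine O-acetyltransferase gene cys2 was at 73.0, 72.3 and 67.2 CPM in htb1-D67N and at 28.5, 29.3 and 31.5 CPM in htb1-E112K (1.23 ± 0.12, adjusted p = 0.00039). For met17 the WT libraries, at 180, 192 and 70.6 CPM, overlapped htb1-D67N and stood above htb1-E112K. For cys2 the WT libraries, at 67.3, 75.3 and 60.5 CPM, lay with htb1-D67N, so that htb1-E112K was the strain set apart. The pyridoxal reductase gene plr1 was at 419, 369 and 349 CPM in htb1-D67N and at 148, 165 and 193 CPM in htb1-E112K, with WT at 53.4, 72.3 and 55.5 CPM (1.15 ± 0.16, adjusted p = 0.00198).

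**Figure D4:**
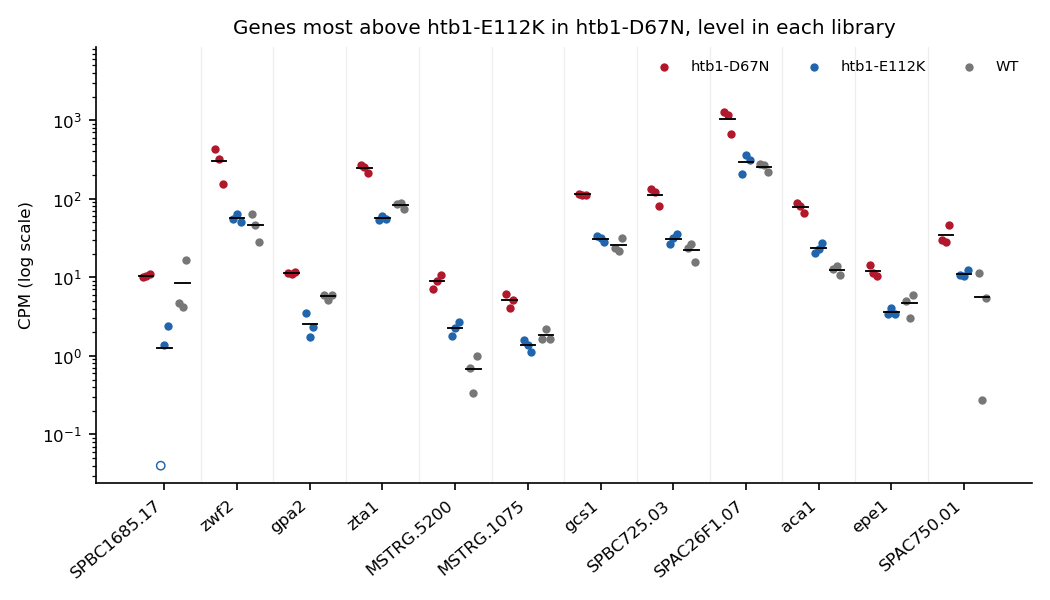
Level in CPM, on a log axis, of the 12 genes with the largest rise among those with at least 5 CPM in either mutant; each point is 1 library (htb1-D67N left, htb1-E112K middle, WT right), bars are means, and an open circle is a library at 0. The htb1-D67N libraries of gcs1 lie at 111 to 116 CPM, above htb1-E112K at 28.5 to 33.3 CPM and WT at 21.7 to 31.6 CPM.

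The rest of the leading 12 have other annotations. aca1, an acetyltransferase that detoxifies a proline analogue, was at 88.4, 81.8 and 66.5 CPM in htb1-D67N and at 20.4, 22.8 and 27.4 CPM in htb1-E112K (log2 fold change 1.73 ± 0.16, adjusted p = 0.000308); cyp8 covers 86.6% of it on the other strand, and counts of such pairs are uncertain because the use of strand in counting is not given in the sources used here. SPBC1685.17, a gene specific to S. pombe, was at 10.02, 10.4 and 11.1 CPM in htb1-D67N and at 0, 1.38 and 2.40 CPM in htb1-E112K (3.07 ± 0.71, adjusted p = 0.0229). Its WT libraries, at 4.74, 4.17 and 16.6 CPM, lay above every htb1-E112K library and on both sides of htb1-D67N. The call was lost without htb1-E112K replicate 2, under DESeq2, under total-count scaling and with the replicate block. A minimum of 10 counts in every library did not admit the gene. The new transcripts MSTRG.5200 and MSTRG.1075, which the authors' assembly added to the annotation, had log2 fold changes of 1.98 ± 0.24 and 1.89 ± 0.25. MSTRG.5200 was at 7.14, 9.10 and 10.6 CPM in htb1-D67N and at 1.79, 2.25 and 2.74 CPM in htb1-E112K.

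Glucose sensing was represented by gpa2, which encodes the G protein alpha subunit that couples extracellular glucose to cAMP. It was at 11.5, 11.1 and 11.8 CPM in htb1-D67N and at 3.52, 1.73 and 2.33 CPM in htb1-E112K, with WT at 5.98, 5.18 and 6.04 CPM (log2 fold change 2.15 ± 0.24, adjusted p = 0.00075). The 2 mutants thus lay on opposite sides of WT with no overlap. The gene of the cAMP-dependent kinase, pka1, was at 30.3, 30.9 and 41.7 CPM in htb1-D67N and at 22.5, 14.3 and 13.6 CPM in htb1-E112K (1.01 ± 0.22, adjusted p = 0.0164); this call was lost without htb1-D67N replicate 3 and without htb1-E112K replicate 2 or 3. Among 15 glucose-repressed and gluconeogenic genes 2 were higher (13.3%, against 1.72% of all tested genes), none was lower, and the median was 0.62. They were fbp1, the fructose-1,6-bisphosphatase gene that glucose represses through cAMP, at 24.01, 23.5 and 24.4 CPM in htb1-D67N and 11.6, 11.6 and 11.4 CPM in htb1-E112K (1.04 ± 0.13, adjusted p = 0.00103), and the dihydroxyacetone kinase gene dak1, at 894, 871 and 721 CPM in htb1-D67N and 371, 343 and 309 CPM in htb1-E112K (1.26 ± 0.17, adjusted p = 0.00191). Of 8 hexose transporter genes, 1 was lower (12.5%, against 2.41% of all tested genes) and 1 higher (12.5%, against 1.72%). The lower gene was ght7, as above. The higher gene, ght1, was at 34.4, 19.6 and 12.7 CPM in htb1-D67N and 10.8, 10.7 and 9.82 CPM in htb1-E112K (1.06 ± 0.29, adjusted p = 0.047). The ght1 call was lost in every fit that left out 1 library except that without htb1-D67N replicate 3. In the starch and sucrose list, 1 of 35 was called higher (2.86%, against 1.72% of all tested genes) and none lower. It was SPAC22F8.05, a predicted trehalose-phosphate synthase gene, with 28.9, 34.1 and 51.7 CPM in htb1-D67N and 15.8, 13.1 and 9.62 CPM in htb1-E112K (1.56 ± 0.25, adjusted p = 0.00372).

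Of the 20 genes on the list of nitrogen and amino acid permeases and related enzymes, 4 were called lower in htb1-D67N against 2.41% of all tested genes, none was called higher, and 9 had an adjusted p under 0.05. The amino acid permease gene isp5 was at 13.7, 17.1 and 13.7 CPM in htb1-D67N and at 80.0, 65.6 and 77.7 CPM in htb1-E112K, with WT at 13.4, 14.4 and 18.4 CPM (log2 fold change -2.35 ± 0.15, adjusted p = 5.57e-05). Here htb1-D67N overlapped WT and htb1-E112K stood apart. The proline permease gene put4, itself subtelomeric, was at 14.6, 11.8 and 11.6 CPM in htb1-D67N and at 31.6, 28.1 and 34.9 CPM in htb1-E112K (-1.34 ± 0.15, adjusted p = 0.000716). The ammonium transporter gene amt1 was at 37.1, 41.8 and 31.5 CPM in htb1-D67N and at 65.9, 81.7 and 77.0 CPM in htb1-E112K, with WT at 64.7, 72.0 and 103 CPM (-1.04 ± 0.15, adjusted p = 0.00241), so that for this gene htb1-D67N was the strain below WT. The amt1 call was lost without htb1-D67N replicate 3 and without htb1-E112K replicate 2. The fourth, uga1, an aminotransferase gene, is treated with the genes at 0 counts, which are uncertain. The median of the list was -0.24, with 13 members below 0 and 7 above.

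Other genes among the 12 largest falls had no shared list. alr1, the alanine racemase gene, was at 2.33, 2.23 and 2.29 CPM in htb1-D67N and at 5.94, 11.03 and 6.84 CPM in htb1-E112K, with WT at 1.94, 2.84 and 2.24 CPM (log2 fold change -1.81 ± 0.26, adjusted p = 0.00242). SPAC1B3.02c, a predicted Elf1-family transcription elongation factor gene, was at 3.37, 4.22 and 5.37 CPM in htb1-D67N, against 15.7, 15.5 and 13.7 CPM in htb1-E112K and 24.5, 23.99 and 24.9 CPM in WT (-1.80 ± 0.20, adjusted p = 0.000661). It was below WT in both mutants, and furthest in htb1-D67N. The cell surface glycoprotein gene pfl7 was at 2.68, 2.56 and 2.22 CPM in htb1-D67N and at 8.63, 8.48 and 8.80 CPM in htb1-E112K (-1.82 ± 0.18, adjusted p = 0.00039). The new transcript MSTRG.4291, whose description names the meiotic protein Mug2, was at 1.59, 1.42 and 1.31 CPM in htb1-D67N and at 6.81, 6.97 and 8.49 CPM in htb1-E112K (-2.38 ± 0.21, adjusted p = 0.000306). Of the 75 lower genes outside the subtelomeres, 40 lay below WT in htb1-D67N with no overlap (22.1% of all tested genes did), and 39 lay above WT in htb1-E112K (24.8%). These 75 were likewise chosen for being lower in htb1-D67N than in htb1-E112K, so nothing is read from these counts.

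Of 24 core stress response genes, which the MAP kinase Sty1 and the factor Atf1 induce, 3 were higher (12.5%, against 1.72% of all tested genes) and 1 was lower (4.17%, against 2.41%), with a median of 0.21. The gene obr1, annotated as the ubiquitinated histone-like protein Uhp1, was at 7744, 6450 and 4662 CPM in htb1-D67N and at 1373, 2540 and 2689 CPM in htb1-E112K (log2 fold change 1.49 ± 0.32, adjusted p = 0.0169). Its call was lost without htb1-D67N replicate 1 or 2 and without htb1-E112K replicate 3. The LEA-domain gene ish1 was at 185, 175 and 171 CPM in htb1-D67N and at 76.0, 72.9 and 67.8 CPM in htb1-E112K (1.28 ± 0.13, adjusted p = 0.00039), and the phosphatase gene pyp2 was the third, at 1.16 ± 0.19. The member that was lower, the cation ATPase gene cta3, was at 5.06, 6.07 and 5.48 CPM in htb1-D67N and at 14.2, 13.2 and 13.3 CPM in htb1-E112K (-1.31 ± 0.15, adjusted p = 0.000963). Among 28 heat shock and chaperone genes 3 were higher (10.7%, against 1.72% of all tested genes) and none lower, and all 3 encode proteins of the small ThiJ/DJ-1 family, hsp3102, hsp3103 and hsp3104, with no classical chaperone among them; the hsp3102 call was lost without htb1-D67N replicate 1 and without htb1-E112K replicate 1. hsp3104 was at 18.2, 21.6 and 23.2 CPM in htb1-D67N and at 8.45, 6.88 and 9.34 CPM in htb1-E112K (1.34 ± 0.17, adjusted p = 0.00139), and hsp3103 at 5.16, 5.45 and 7.12 CPM in htb1-D67N and 1.82, 2.12 and 2.53 CPM in htb1-E112K (1.44 ± 0.23, adjusted p = 0.00374). The other members of that family, hsp3101 and hsp3105, had log2 fold changes of 0.02 ± 0.16 and -0.54 ± 0.36.

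The machinery of H2B ubiquitination was looked at because both substitutions lie in its substrate. The E2 gene rhp6 was at 37.8, 33.5 and 29.4 CPM in htb1-D67N and at 35.9, 40.7 and 41.6 CPM in htb1-E112K (log2 fold change -0.25 ± 0.14, adjusted p = 0.3). The E3 gene brl1 was at 4.61, 4.60 and 6.83 CPM in htb1-D67N and at 3.43, 3.07 and 3.76 CPM in htb1-E112K (0.63 ± 0.23, adjusted p = 0.108). The other E3 gene, brl2, at 0.992, 1.33 and 1.31 CPM in htb1-D67N and at 1.07, 1.69 and 2.02 CPM in htb1-E112K (-0.40 ± 0.32, adjusted p = 0.494), overlaps sec8 on the other strand over 93.1% of its length. None of these 3 passed. Of 20 SAGA genes, none was called by edgeR or DESeq2, and the median was 0.00. An unadjusted p under 0.05 was found for 6, against 1230 of all 4935 tested genes. An adjusted p under 0.05 was found for 3, against 508 of all tested genes. The deubiquitination module gene sgf11 was at 10.3, 11.8 and 11.5 CPM in htb1-D67N and at 17.1, 17.0 and 19.1 CPM in htb1-E112K (-0.68 ± 0.14, adjusted p = 0.0134). Its module partner sgf73 was at 3.22, 3.46 and 3.01 CPM in htb1-D67N and at 6.48, 4.46 and 5.20 CPM in htb1-E112K (-0.76 ± 0.21, adjusted p = 0.0469). Both were short of 2-fold, and ubp8 was at 0.25 ± 0.20 (adjusted p = 0.482). None of 8 genes of the Set1 complex was called by either tool, and none had an unadjusted p under 0.05.

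In 3 genes every htb1-D67N library held 0 counts while each htb1-E112K library held at least 21. The fourth HULC gene, shf1, was at 1.64, 1.73 and 0.719 CPM in htb1-E112K, with WT at 3.56, 2.34 and 2.70 CPM, which makes it at least 31.3-fold lower in htb1-D67N, as its mean CPM in htb1-E112K against a floor of 3 counts over the 3 libraries (adjusted p = 0.00241). The 4-aminobutyrate aminotransferase gene uga1 was at 6.42, 10.04 and 7.49 CPM in htb1-E112K (at least 183-fold lower in htb1-D67N, adjusted p = 8.86e-05). The gene ucp6, for a UBA domain protein, was at 13.1, 1.56 and 1.95 CPM in htb1-E112K (at least 127-fold lower, adjusted p = 0.0112), a mean that 1 library carries; without htb1-E112K replicate 1 the bound is 40.2-fold. In the libraries of the series outside these 2 strains, the lowest count was 0 for shf1 and uga1 and 27 for ucp6. A count of 0 in shf1 or uga1 was therefore not confined to htb1-D67N. All 3 genes lie wholly inside a gene on the other strand, shf1 in plc1, uga1 in SPAC14C4.01c and ucp6 in spo12, so that their counts are uncertain. That partner was higher in htb1-D67N for plc1, at 6.15, 6.68 and 7.15 CPM in htb1-D67N and 2.69, 2.34 and 4.11 CPM in htb1-E112K (log2 fold change 1.11 ± 0.24, adjusted p = 0.0156, lost without htb1-E112K replicate 2), while SPAC14C4.01c and spo12 had log2 fold changes of 0.24 ± 0.13 and 0.54 ± 0.15 and were not called. The part of the antisense overlap in the zeros was not tested.

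The list of DNA replication, repair and recombination genes is one that the study itself used on these libraries, so its direction is not independent evidence. It gave 3 calls among 232 tested (1.29% lower, against 2.41% of all tested genes) and a median of 0.01. The called genes were rev1, the deoxycytidyl transferase of translesion synthesis, pds5, a cohesin-associated factor, and ast1, an XP-G family gene, all of low abundance and outside the naming rule. rev1 was at 0.843, 0.853 and 1.27 CPM in htb1-D67N and at 3.43, 2.21 and 2.91 CPM in htb1-E112K (log2 fold change -1.53 ± 0.30, adjusted p = 0.0102). ast1 was at 1.84, 1.42 and 1.63 CPM in htb1-D67N and at 4.03, 3.33 and 3.90 CPM in htb1-E112K (-1.22 ± 0.23, adjusted p = 0.00854). The pds5 call (-1.35 ± 0.36, adjusted p = 0.042) was lost whichever library was left out. The count of lower genes on this list was 7 without htb1-D67N replicate 3, 13 without both outlying libraries and 6 by DESeq2, which was run without the low-count filter. With total-count scaling it was 0. A list of 23 genes for transcription at the G1/S transition mixes targets of the MBF factor with genes of MBF itself and its regulators. Of these 23, none was called by edgeR and 1 by DESeq2. Their median was 0.41, with 17 of 23 above 0. An unadjusted p under 0.05 was found for 11, against 1230 of all 4935 tested genes. The replication licensing gene cdc18 was at 6.45, 7.92 and 7.23 CPM in htb1-D67N and at 3.67, 4.20 and 3.63 CPM in htb1-E112K (0.89 ± 0.18, adjusted p = 0.0124).

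Genes of mating and of meiosis were read from separate lists. Of 22 pheromone and mating genes tested, 2 were lower in htb1-D67N (9.09%, against 2.41% of all tested genes), 1 was higher (4.55%, against 1.72%), and 18 had a log2 fold change below 0, with a median of -0.55. The MAP kinase gene spk1 was at 6.45, 6.30 and 3.59 CPM in htb1-D67N and at 13.7, 13.5 and 10.7 CPM in htb1-E112K, against 0.862, 0.445 and 0.595 CPM in WT (log2 fold change -1.25 ± 0.23, adjusted p = 0.008); ups1 covers 77.3% of it on the other strand, and its call was lost under total-count scaling, with all 24 libraries in the fit and without both outlying libraries. The other calls of the list, mam4 (lower) and fus1 (higher), were lost in 4 and 5 of the 6 fits that left out 1 library. The meiosis regulator gene mei2 was at 9.47, 7.68 and 8.39 CPM in htb1-D67N and at 16.8, 11.6 and 14.8 CPM in htb1-E112K (-0.78 ± 0.18, adjusted p = 0.0224), short of 2-fold. Both genes stood above WT in both mutants. The 103 tested mug and meu genes, named for their rise in meiosis, had a median log2 fold change of 0.02. Of these, 3 were called higher (2.91%, against 1.72% of all tested genes) and 2 lower (1.94%, against 2.41%). They included mug14, an adducin-like gene, at 45.3, 48.6 and 48.8 CPM in htb1-D67N, against 17.7, 19.4 and 17.2 CPM in htb1-E112K and 1.35, 1.84 and 0.961 CPM in WT (1.38 ± 0.13, adjusted p = 0.000308, lost when all 24 libraries entered the fit), and mug58, at 1.46 ± 0.38 (adjusted p = 0.0394), whose call was lost in 4 of the 6 fits that left out 1 library and which mug177 covers over 87.4% on the other strand.

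The remaining lists held few calls or none. The list of cytosolic ribosomal proteins held 141 genes, among them the RNase P subunit genes rpp1, rpp40 and rpp21. It had no call by edgeR or DESeq2, and 4 genes had an unadjusted p under 0.05. Its median was -0.16, with 119 of 141 below 0, and stayed below 0 under RLE and total-count scaling. No gene was called by either tool among 59 for oxidative phosphorylation (6 with an unadjusted p under 0.05), 36 for the proteasome (6), 69 for ribosome biogenesis (9) or 30 for cell separation and glucans (10), whose medians were 0.00, 0.18, -0.01 and 0.24. Of all 4935 tested genes 1230 had an unadjusted p under 0.05. Of 65 autophagy genes 1 was called higher (1.54%, against 1.72% of all tested genes), which was pka1. Among 10 phosphate acquisition genes 1 was lower, the secreted acid phosphatase gene pho1, itself subtelomeric, at 719, 740 and 574 CPM in htb1-D67N and 1152, 1455 and 1517 CPM in htb1-E112K (log2 fold change -1.04 ± 0.20, adjusted p = 0.00989); the call was lost without htb1-D67N replicate 2 or 3 and without htb1-E112K replicate 2 or 3. Among 19 iron genes 2 were lower (10.5%, against 2.41% of all tested genes): the ferric reductase gene frp1, at 1.93, 1.75 and 3.34 CPM in htb1-D67N and 4.69, 5.67 and 7.29 CPM in htb1-E112K (-1.32 ± 0.29, adjusted p = 0.0183, lost without htb1-D67N replicate 1 or 2 and without htb1-E112K replicate 3), and the siderophore transporter gene str3, itself subtelomeric (-1.29 ± 0.33, adjusted p = 0.036, lost without htb1-D67N replicate 1 or 2 and without htb1-E112K replicate 2 or 3). A single gene of the mitochondrial genome was tested, SPMIT.06, at 0.109 to 0.332 CPM in htb1-D67N and 0.508 to 1.03 CPM in htb1-E112K, and its call was lost in 5 of the 6 fits that left out 1 library, all but the one without htb1-E112K replicate 1.

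**Figure D5:**
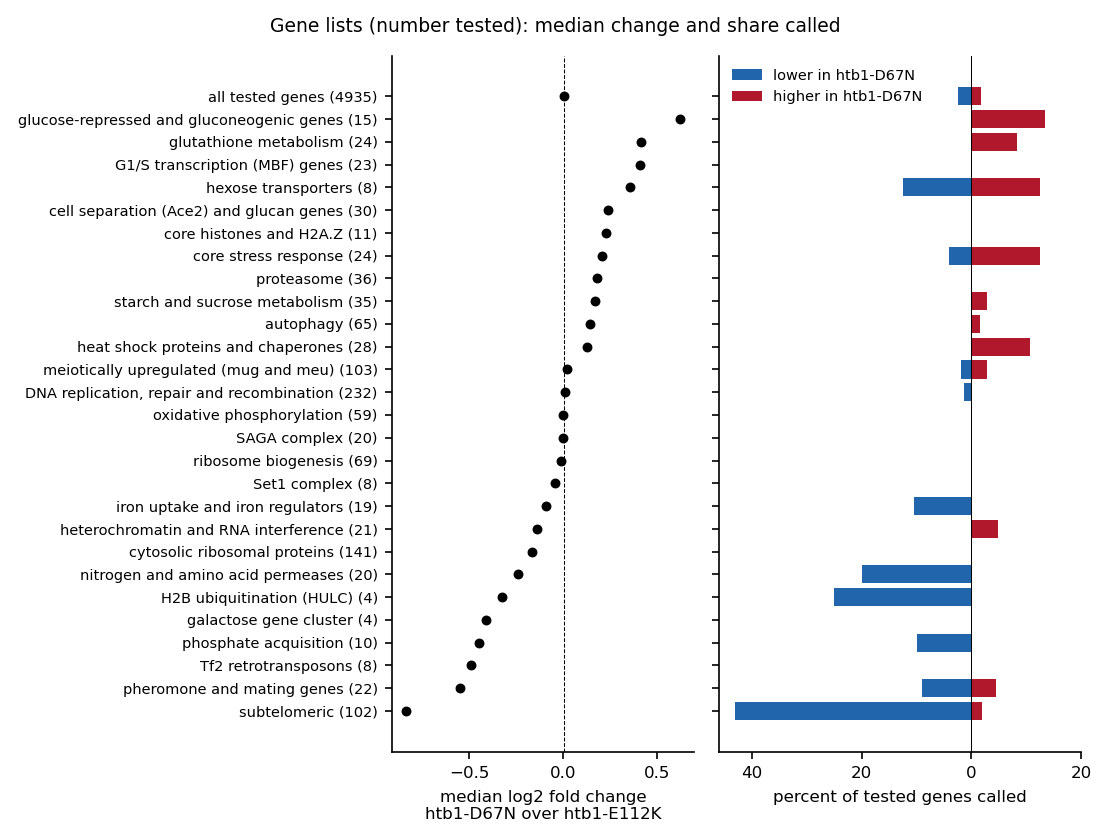
Each row is a gene list with the number of genes tested; the left panel gives the median log2 fold change of htb1-D67N over htb1-E112K (dashed line, all tested genes) and the right panel the percent of tested genes called higher (red) or lower (blue) in htb1-D67N. The subtelomeric list has the lowest median, -0.835, and 43.1% of its genes called lower, against 2.41% of all tested genes.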

How the data were processed

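Total RNA of 3 libraries per strain was selected with oligo(dT), sequenced on an Illumina HiSeq, filtered (fastp), cleared of rRNA reads (Bowtie2), aligned to Ensembl release 45 (HISAT2) and assembled (StringTie) by the authors. The tables the authors deposited hold raw read counts per gene; the submitters' processing notes also list RSEM and DESeq2, with no role, and which program made the counts, and its use of strand and of reads with several matches, is not given in the sources used here. The FPKM, fold change and p-value columns of the authors' own comparisons with WT, and their tables of called genes, were not used.

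Of 5195 genes, 5109 matched the RefSeq ASM294v3 annotation by locus tag, which gave distances from chromosome ends, overlaps and the htb1 sequence. The 59 new transcripts were tested but kept out of lists. The 6 libraries were fitted in edgeR 4.0.16 (R 4.3.3) with filterByExpr, TMM and glmQLFit with glmQLFTest, with no covariate. The common biological coefficient of variation was 0.191. Adjusted p-values are Benjamini-Hochberg over 4935 genes, and a gene was called when it was below 0.05 with an absolute log2 fold change of 1 or more, following the thresholds of the study. CPM are TMM-scaled over the 6 libraries and WT; they are not divided by gene length, so levels of different genes are not compared. On data simulated from the means and library sizes of this comparison, 99.5% of 200 genes changed by a log2 fold of 2 were called among 4935, with 8 false calls. The 200 were drawn only from genes above a minimum mean count and changed by more than the 2-fold limit. The recovery therefore does not cover low-abundance genes or changes near 2-fold.

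Depth was 19353141 to 27138609 counts per library. A floor of 3 counts covers counting error only. No pair of replicates agreed within sampling noise, so each was counted as 1 sample. Alternatives were DESeq2 1.42.0, RLE and total-count scaling, other filters, all 24 libraries or WT in the fit, a replicate block, thinning to equal depth, a gene-length correction and each library left out. The members and the 29 gene lists were chosen with earlier results of these data known. Named were htb1, the core histone, HULC and strain marker genes, the 12 called genes with the largest change each way among those with at least 5 CPM in either strain and no overlap, and the 2 leading called members each way of each list on the same terms; every other gene named was picked after its values were seen. Figures were drawn with Python 3.11.15.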

Additional observations from a re-analysis of the deposited data

Results flagged for a closer look

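In 19 of the 204 called genes the 2 mutants lay on opposite sides of every WT library, as 0.831% of all tested genes did; called genes were chosen for that difference, so the count is a description. They include the 6 genes that follow. The gene gpa2 was higher in htb1-D67N by a log2 fold change of 2.15, with WT between the strains, as given above. The quinone oxidoreductase gene zta1 was higher by 2.12, with htb1-E112K below WT. The new transcript MSTRG.1075 was higher by 1.89, at 6.1998, 4.08 and 5.12 CPM in htb1-D67N and 1.58, 1.38 and 1.13 CPM in htb1-E112K, with WT at 1.62, 2.23 and 1.65 CPM. The new transcript MSTRG.4291 had a log2 fold change of -2.38, with WT at 3.45, 4.45 and 4.03 CPM. The translesion synthesis gene rev1 had a log2 fold change of -1.53, with WT at 1.94, 1.503 and 1.56 CPM. The subtelomeric gene SPAC977.11, for a CRCB domain protein and picked after its values were seen, had a log2 fold change of -1.12, at 21.3, 18.0 and 14.7 CPM in htb1-D67N and 34.7, 42.6 and 38.2 CPM in htb1-E112K, with WT at 29.8, 31.6 and 34.01 CPM; its call was lost without htb1-D67N replicate 3. The position of WT was not tested.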

How the results depend on the processing

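The libraries left out one at a time gave 72 to 99 higher genes, 82 to 151 lower genes, 30 to 39 lower subtelomeric genes and a log2 fold change of htb1 between 0.82 and 1.13. Total-count scaling gave 52 higher, 45 lower and 23 lower subtelomeric genes, and a minimum of 10 counts in every library gave 29 lower subtelomeric genes. An adjusted p under 0.05 alone, without the 2-fold limit, gave 264 higher and 244 lower genes. Leaving out htb1-D67N replicate 3 and htb1-E112K replicate 1 together, a setting added after seeing the data, gave 203 lower genes and a log2 fold change of 1.28 for htb1, which then passed. The causes of these shifts were not tested, beyond the fewer genes that a stricter filter admits. Under DESeq2, RLE scaling, no filter, all 24 libraries, WT in the fit, thinning and gene-length correction the counts of higher, lower and lower subtelomeric genes stayed within 1.5 times. Deviations of same-numbered replicates of the 2 strains had r = -0.37, 0.20 and -0.22 across genes, which are not independent. For htb1-D67N replicate 2, r was also 0.20 with htb1-E112K replicate 3. The highest r, 0.489, was between htb1-D67N replicate 3 and htb1-E112K replicate 1, the 2 outlying libraries. With 3 libraries per strain, these values cannot decide whether the numbers pair the libraries. With the replicate block 66 genes were higher, 89 lower, 31 of them subtelomeric, and htb1 was at 0.98. Of 79 named genes that were called, none changed direction in any setting run; 35 lost the call under total-count scaling, 19 with all 24 libraries in the fit, 16 with the replicate block, 7 with WT in the fit and 1 under DESeq2. Low counts limit the precision of the 60 lower genes under 5 CPM.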
